A study of Mus musculus with 9 samples.

Results

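The genes described here encode the subunits of RNA polymerase II (Pol II), of Mediator and of Integrator. They were found by symbol in the gene list of the count matrices: Polr2 followed by a letter, Med followed by a number with an optional l, and Ints followed by a number, with pseudogenes left out. This gave 57 of 32285 genes, of which 13 belong to Pol II, 30 to Mediator and 14 to Integrator. The choice used no expression value. All 57 passed the filter on low counts in every comparison, so each is accounted for in the counts below.

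Pol II copies protein-coding genes into RNA with a core of catalytic and structural subunits, several of which it shares with Pol I and Pol III. Mediator bridges transcription factors and Pol II through a head, a middle and a tail joined by a scaffold subunit, and a separable kinase module regulates its contact with the polymerase. Integrator binds Pol II paused near promoters, cuts its RNA with an endonuclease and removes phosphates from it through a bound phosphatase. NELF, which holds the paused polymerase, and TDP-43, a protein that binds RNA and DNA, were deleted in the mice studied. Germ cells pass from spermatogonia (SG) through meiosis as spermatocytes (SC) to round spermatids (RS).

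Whole testes of 9 mice at PND24 were profiled by single cell RNA-seq, each mouse giving 1 library. There were 4 control mice, 2 with a conditional knockout (cKO) of NELF-B and 3 with a cKO of TDP-43. The labels give C57BL/6 for the mice, and per the study's methods the lines had been backcrossed to C57BL/6J. Controls were littermates or other mice. The name under which 1 control was deposited holds the word het and others hold codes that the labels do not explain, and these were not used to group or pair mice. A cKO mouse carried 1 floxed and 1 null allele of Nelfb or of Tardbp, which encodes TDP-43, together with the Stra8-iCre transgene, whose promoter is active in SG, so cells outside the germline keep the floxed allele and lack the other. The deposited counts are UMIs, each of which stands for 1 captured transcript tagged at its 3′ end. Cells were clustered without the genes described here and named from marker genes, so that SG, early SC (preleptotene, leptotene and zygotene), pachytene (P) SC, diplotene (D) SC, RS and Sertoli cells mean clusters that resemble these cells. Sertoli cells are the somatic cells that support the germ cells, and the Cre is not active in them.

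Levels are given as CPM, the count a gene would have among 1000000 UMIs of a cell type in a mouse. A lower share is not a lower number of molecules per cell, since the median cell of the control mice held most UMIs at D SC (56319 to 95807), fewer at P SC (41585 to 59240), SG (15589 to 24075) and early SC (8519 to 10682), and 2692 to 21236 at RS. The libraries held 119203347 to 159407373 UMIs per mouse, and the sums used 24298 cells, of which the control group gave 10902, the NELF-B cKO group 6356 and the TDP-43 cKO group 7040. Of the barcode sequences kept, 260 occurred in more than 1 library. Among the members, the lowest count behind a level in a control mouse was 25 UMIs in SG, 40 in early SC, 3 in P SC, 3 in D SC, 5 in RS and 5 in Sertoli cells. The summed early SC markers reached 4671 to 6859 CPM in early SC and 1378 to 1518 in SG of the control mice, and the summed Sertoli markers reached 5721 to 8624 CPM in Sertoli cells. Other markers were less specific. The summed D SC markers had 694 to 753 CPM in D SC and 726 to 865 in RS of the control mice. The 3 summed markers of differentiating SG had 317 to 360 CPM in SG and 883 to 1117 in D SC. With every SG counted, Nelfb stood at 62.6 to 75.6 CPM in the controls against 5.76 and 5.05 with the NELF-B cKO. In early SC Tardbp stood at 152 to 189 CPM in the controls against 45.0 to 82.2 with the TDP-43 cKO, although a UMI from its 3′ end does not report the deleted exon. In later stages, again with every cell counted, Tardbp had 139 and 140 CPM in P SC of 2 TDP-43 cKO mice against 151 to 166 in the controls, and Nelfb had 2.94 and 3.096 CPM in P SC with the NELF-B cKO against 27.9 to 34.0 but 26.8 in RS of NELF-B cKO 1 against 7.82 to 24.3. In Sertoli cells Nelfb had 6.38 and 10.6 CPM with the NELF-B cKO against 18.5 to 26.8 in the controls. Tardbp had 73.7 to 80.6 CPM there with the TDP-43 cKO against 100 to 111.

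Promoter sequences of 4 Mediator genes are shown because of these genes' changes between stages. Med12 (chrX:101274030-101297465, plus strand) and Med14 (chrX:12675369-12762073, minus strand) are the members on the X chromosome, Med16 (chr10:79894708-79908923, minus strand) rose most in P SC and Med21 (chr6:146642547-146650732, plus strand) fell and rose again. The bases come from RefSeq, build GRCm38.p6, and run 5′ to 3′ on the gene's strand up to the annotated start, with transcribed bases left out. The windows are chrX:101273841-101274029 for Med12, chrX:12762074-12762223 for Med14, chr10:79908939-79909188 for Med16 and chr6:146642329-146642546 for Med21. Capitals mark each match, on either strand, to TATAAA, the letters of the TATA box, CCAAT, those of the NF-Y site, GGGCGG, those of the GC box, or TGACGTCA, those of the cAMP response element.
Med12: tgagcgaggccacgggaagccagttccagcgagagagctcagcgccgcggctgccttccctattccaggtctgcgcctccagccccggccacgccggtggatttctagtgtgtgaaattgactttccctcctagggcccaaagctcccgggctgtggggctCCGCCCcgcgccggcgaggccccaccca
Med14: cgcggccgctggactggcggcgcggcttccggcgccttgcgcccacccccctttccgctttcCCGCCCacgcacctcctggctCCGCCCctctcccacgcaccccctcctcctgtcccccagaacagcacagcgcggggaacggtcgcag
Med16: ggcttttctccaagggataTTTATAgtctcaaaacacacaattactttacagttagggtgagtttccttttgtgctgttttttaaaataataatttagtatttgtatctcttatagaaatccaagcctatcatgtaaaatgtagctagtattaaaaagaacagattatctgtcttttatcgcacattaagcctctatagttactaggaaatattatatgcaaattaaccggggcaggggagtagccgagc
Med21: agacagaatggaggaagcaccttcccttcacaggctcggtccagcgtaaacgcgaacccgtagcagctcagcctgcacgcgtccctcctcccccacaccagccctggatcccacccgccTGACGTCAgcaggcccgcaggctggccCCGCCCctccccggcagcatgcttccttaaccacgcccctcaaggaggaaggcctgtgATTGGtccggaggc

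Both X-linked promoters held GGGCGG and were rich in G and C (68.3% for Med12 and 75.3% for Med14), whereas the Med16 promoter had 33.2% G and C and a match to TATAAA on the other strand, 231 to 226 bases before the start. The Med21 promoter held TGACGTCA, GGGCGG and CCAAT. Among 32851 RefSeq promoters of 250 bases before the start, 12.4% held TATAAA, 33.8% CCAAT, 32.7% GGGCGG and 1.55% TGACGTCA on either strand. Of 53 promoters matched to 46 members, 5 (9.43%) held TATAAA, 24 (45.3%) CCAAT, 35 (66.0%) GGGCGG and 2 (3.77%), those of Ints7 and Med21, TGACGTCA. The median share of G and C was 58.4% for the promoters of members and 52.4% for all promoters. These matches describe the letters of these windows only.

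The summed level of each complex followed its own course through the stages of the control mice. The 13 Pol II genes together had 2882, 2631, 2621 and 2593 CPM in SG of control mice 1 to 4, and 700.1, 741, 622 and 650.1 CPM in RS. The 4 SG values lie far above the RS values. The 30 Mediator genes had 1945 to 2018 CPM in SG, 2605 to 2819 in early SC and 1696 to 1975 in RS, so early SC stood above the other germ cell stages in all 4 mice. The 14 Integrator genes had 863 to 945 CPM in SG, 1014 to 1182 in early SC and 379 to 490 in RS. Abundant members weigh most in these sums, such as Ints6, with a mean of 479 CPM in early SC. In SG the means of Polr2f and Polr2e were 611 and 322 CPM. A sum therefore need not show the course of most members of its complex.

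**Figure D1:**
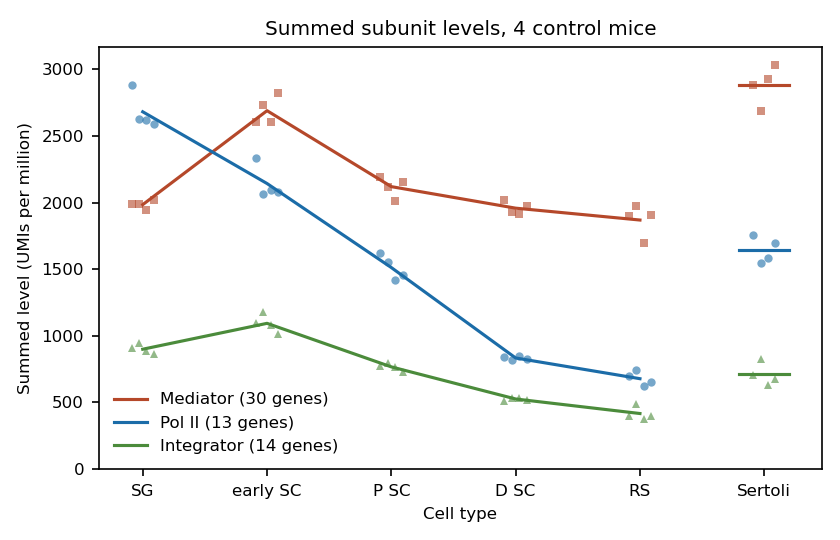
Summed level of the subunits of each complex (CPM) by cell type in the 4 control mice; points are mice and lines are the means. The Pol II sum falls from SG through RS, and the Mediator and Integrator sums are highest in early SC among germ cells. The Mediator sum in Sertoli cells reaches 2689 to 3035 CPM.

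Single members differed in where they were highest. Among Pol II genes, 7 had their highest mean in SG, 4 in early SC, 1 in P SC and 1 in D SC. Mediator genes were highest in early SC (16), D SC (6), SG (3), P SC (3) and RS (2), and Integrator genes in SG (7), early SC (5), P SC (1) and D SC (1). For 28 of the 57 members, all 4 mice of the highest stage lay above all mice of the other stages. The ratio of the highest to the lowest stage mean had a median of 5.84 and ran from 1.45 for Med24 to 82.9 for Med12. In 7 members, Sertoli cells lay above every germ cell stage in each control mouse: Med19, Med12l, Ints3, Med8, Polr2l, Polr2m and Med10. The shares of all genes with these patterns were not counted, so none of these counts sets the members apart from other genes.

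Neighbouring stages were compared in the 4 control mice with edgeR's quasi-likelihood test on summed counts, with the mouse as a block. A gene was called at a Benjamini-Hochberg adjusted p under 0.05 over the 19641 genes tested. The comparisons share mice and stages, and p-values measure how the differences between cell types vary among these mice. Fold changes follow TMM normalization and are given on the log2 scale with their SE, so they can differ from ratios of CPM. Because stages differ in composition, each comparison was also scaled with DESeq2 size factors and with library totals alone, and the median of all genes then moved from -0.12 to -0.33 and -0.64 for P SC against early SC, and from -0.03 to 0.21 and -0.21 for D SC against P SC. For early SC against SG it went from 0.01 to -0.01 and -0.07, and for RS against D SC from 0.10 to 0.30 and 0.26. Calls that hold in all 3 scalings are therefore given beside the main counts.

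From SG to early SC, 19 of 30 Mediator genes rose while 7 of 13 Pol II genes fell. Of the 57 members, 27 were higher and 14 lower in early SC, where 55.4% of all genes tested were called, 26.3% higher and 29.2% lower, and 26 and 14 held in all 3 scalings. With size factors the counts were 26 and 16 (25.6% and 29.8% of all genes), and with library totals 26 and 17 (23.0% and 31.8%). Under the limits the study set between cell types, an adjusted p under 0.05 and over 1.5-fold, 25 members passed (43.1% of all genes), and under the stricter ones of its genotype tests, a log2 change of 1 or more in size and an adjusted p below 0.01, 6 did (24.8% of all genes). The members had a median log2 fold change of 0.18 and all genes one of 0.01. By complex, 19 of 30 Mediator genes were higher and 2 lower, 2 of 13 Pol II genes higher and 7 lower, and 6 of 14 Integrator genes higher and 5 lower.

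Within Pol II, the subunits shared with Pol I and Pol III fell in 4 of 5 cases. Polr2f, the shared subunit RPB6, had 708, 585, 584 and 568 CPM in SG and 258, 160, 186 and 178 in early SC. The groups do not overlap, and the level was 2.99-fold lower in early SC (log2 fold change -1.58 ± 0.10, adjusted p = 1.32e-11). Polr2e, the shared subunit RPB5, had 306 to 359 CPM in SG and 92.4 to 139 in early SC and was 2.82-fold lower (-1.49 ± 0.09). Polr2h (RPB8) fell by 0.69 on the log2 scale and Polr2i (RPB9), found in Pol II alone, by 0.66. Polr2k (RPB12) went the other way, from 192, 221, 202 and 191 CPM to 354, 407, 359 and 422, a 2.02-fold rise (1.01 ± 0.08, adjusted p = 1.01e-09). Polr2a, the largest subunit, with the C-terminal tail that kinases modify, rose 1.55-fold (0.63 ± 0.08, adjusted p = 5.05e-07) from 218 to 294 CPM to 328 to 428 CPM. Polr2m, the Pol II-associated protein Gdown1, fell by 0.32 (adjusted p = 0.000798).

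In Mediator, 8 of 9 middle subunits rose and none fell, 7 of them in all 3 scalings. Med13, which joins the kinase module to the rest of Mediator, had 59.2, 69.5, 57.6 and 81.2 CPM in SG and 133, 192, 158 and 165 in early SC. All early SC values exceed all SG values, a 2.54-fold difference (1.35 ± 0.12, adjusted p = 2.73e-09). Med10 and Med21, both of the middle, rose 2.25-fold (1.17 ± 0.09) and 2.18-fold (1.12 ± 0.12). Med30 of the tail rose 1.96-fold (0.97 ± 0.09). Smaller rises were found for Med1 (0.40 ± 0.09), which nuclear receptors contact, Med12 (0.75 ± 0.14), Med14 (0.56 ± 0.14) and Med15 (0.45 ± 0.09). Of the tail 5 of 9 subunits were higher and 1 lower, of the head 2 of 7 higher and none lower, and of the kinase module 3 of 4 higher and 1 lower.

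In Integrator, all 3 subunits of the cleavage module fell, and of the 7 on the backbone and phosphatase side 4 rose and 1 fell, in all 3 scalings. Ints11, the endonuclease, went from 54.1 to 61.7 CPM in SG to 37.4 to 51.1 in early SC (-0.34 ± 0.12, adjusted p = 0.0157), Ints4, its scaffold, fell by 0.74 and Ints9, the partner of the endonuclease, fell by 0.32. Ints14 of the arm rose 1.86-fold (0.89 ± 0.16), and 2 of the 3 arm subunits rose in all. Ints6, which brings in the phosphatase, had 281, 322, 256 and 238 CPM in SG and 475, 546, 454 and 440 in early SC. These values do not overlap (0.88 ± 0.09, adjusted p = 2.6e-08). Ints1, the large backbone subunit, fell by 0.67 and Ints3, which also belongs to the single-strand DNA binding SOSS complex, by 0.49.

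**Figure D2:**
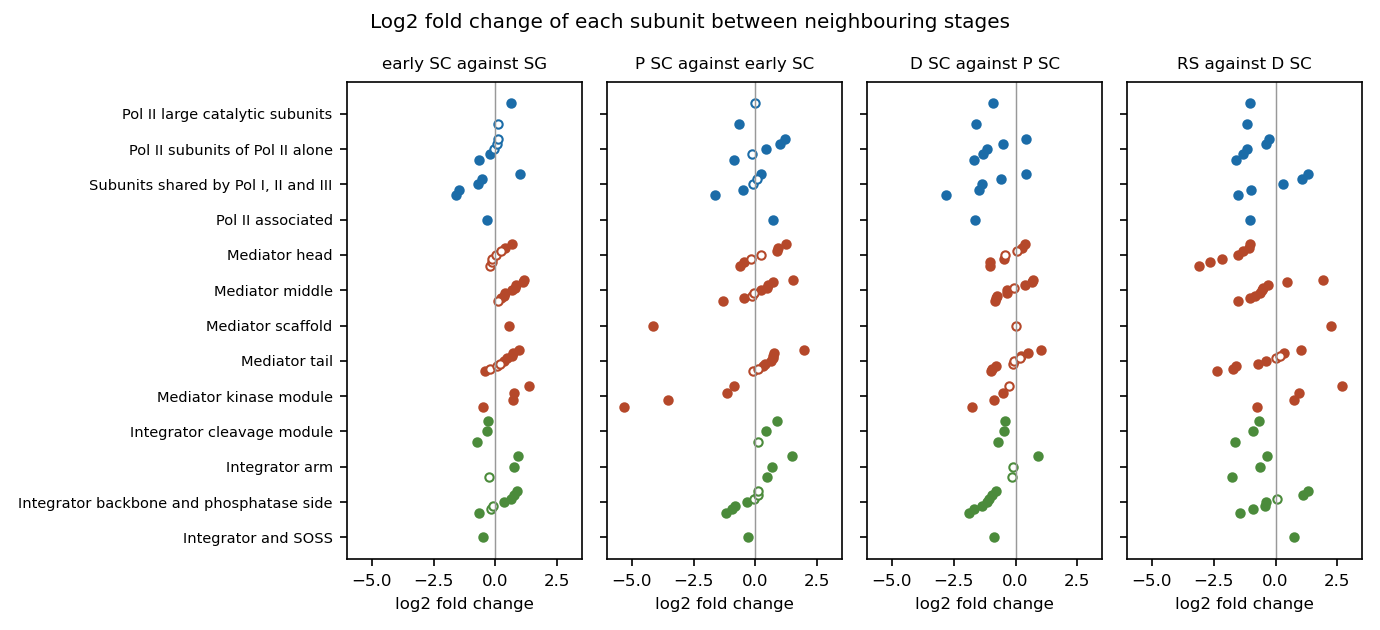
Log2 fold change of each of the 57 subunits between neighbouring stages of the control mice, by role; filled points mark an adjusted p below 0.05 and open points the rest. The widest spread is for P SC against early SC, where Med12 stands at -5.34 and Med16 at 1.96.

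From early SC to P SC, all 4 genes of the kinase module fell, and of the 57 members 18 were lower and 9 higher in all 3 scalings. In the main scaling 25 members were higher and 18 lower, where 69.0% of all genes were called, 34.5% higher and 34.5% lower, with a median of 0.11 for members and -0.12 for all genes. With size factors 20 were higher and 26 lower (all genes 30.3% and 40.6%), and with library totals 9 and 33 (24.2% and 49.6%). At over 1.5-fold 29 members passed (60.0% of all genes), and at the stricter limits 13 (43.9%). The 18 lower calls of the main scaling are those that held in all 3, and the 9 higher ones that held were Med8, Med9, Med11, Med16, Med22, Polr2c, Polr2i, Ints4 and Ints10. Another 9 turned direction, namely Ints9, Ints13, Med7, Med10, Med23, Med25, Med31, Polr2e and Polr2g.

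All 4 kinase module genes fell in every scaling. Med12, which activates the module's kinase, had 38.5, 42.8, 40.3 and 34.3 CPM in early SC and 0.367, 0.745, 0.842 and 0.574 in P SC, where the counts were 3, 14, 15 and 16 UMIs. The groups lie far apart and the level was 40.4-fold lower (-5.34 ± 0.19, adjusted p = 4.62e-16). Med12l, its autosomal paralogue, had 29.4, 43.1, 44.5 and 41.3 CPM in early SC and 1.84, 2.93, 1.57 and 3.08 in P SC, 11.6-fold lower (-3.53 ± 0.16, adjusted p = 6.59e-15). Med13 fell by 1.15 and Med13l, its paralogue, by 0.87. Of the module's partners, the kinase gene Cdk8 fell by 1.73 and the cyclin gene Ccnc by 0.34, while Cdk19 rose by 0.74 in the main scaling, a call that did not hold in all 3.

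Med14, the scaffold between the Mediator modules, had 27.1, 37.6, 35.1 and 34.9 CPM in early SC and 1.10, 1.65, 1.40 and 1.11 in P SC. No value of one stage approaches the other, and the level was 17.7-fold lower (-4.14 ± 0.17, adjusted p = 2.28e-15). Med12 and Med14 were the only X-linked members, and the X chromosome is known to be silenced in pachytene. Of 730 X-linked genes tested, 555 were lower and 14 higher in P SC, with a median of -2.86, and of 18810 autosomal genes 6183 were lower and 6751 higher, with a median of -0.05. Among the 55 autosomal members 16 were lower and 25 higher, with a median of 0.11. The part of X silencing in the falls of Med12 and Med14 was not tested. Free RNA, taken from barcodes with between 1 and 100 UMIs, had 4.26 to 9.29 CPM of Med12 and 3.76 to 6.52 of Med14 in the control mice, so the P SC levels lie below those of free RNA.

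**Figure D3:**
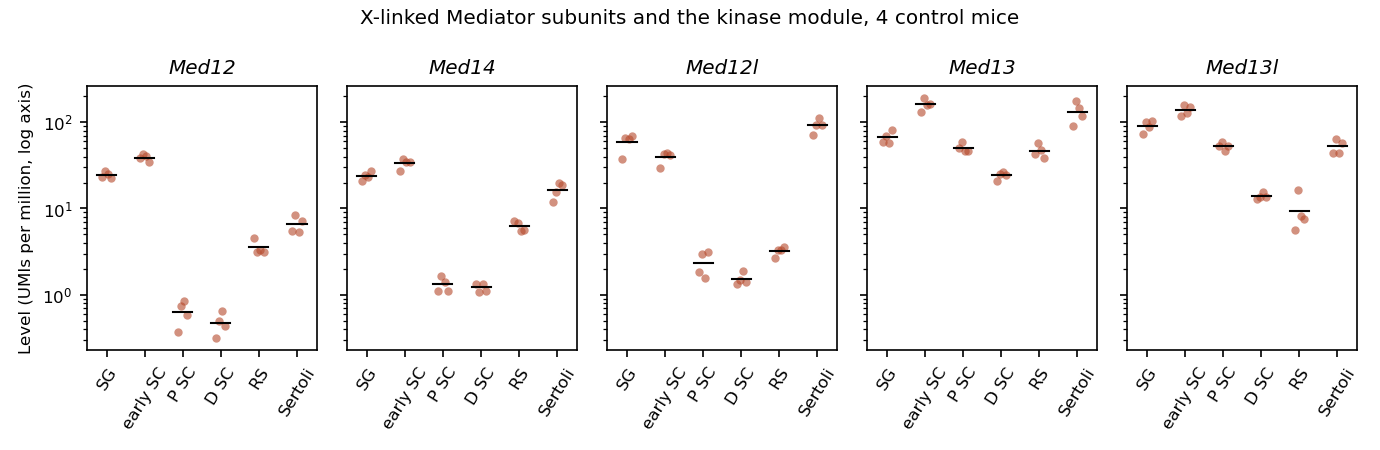
Level of the X-linked Med12 and Med14 and of the autosomal kinase module genes (CPM, log axis) in 6 cell types; points are the 4 control mice and bars their mean. Med12 and Med14 drop to 0.632 and 1.32 CPM in P SC and stand at 3.55 and 6.27 in RS, and Med12l drops with them to 2.35.

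Med16 of the tail showed the largest rise of all members, from 56.1, 43.8, 48.2 and 46.0 CPM in early SC to 131, 118, 141 and 129 in P SC. The stages do not overlap (3.88-fold, 1.96 ± 0.08, adjusted p = 2.28e-15). Med9 of the middle rose 2.87-fold (1.52 ± 0.10), Ints10 of the arm 2.76-fold (1.46 ± 0.12), Med11 of the head 2.38-fold (1.25 ± 0.14), Polr2i 2.26-fold (1.18 ± 0.10) and Polr2c (RPB3) 2.01-fold (1.01 ± 0.07). Of the tail 7 of 9 subunits were higher and none lower, but Med16 alone in all 3 scalings. Med15, a tail subunit that binds activators, and Polr2m were higher in the main scaling (0.64 ± 0.09 and 0.71 ± 0.07), and their call was lost in another scaling.

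The members that fell beside the kinase module included Polr2h, by 1.63 (± 0.13), Med21, by 1.32 (± 0.12), and Ints8, a phosphatase-side Integrator subunit, by 1.20 (± 0.12). Med21 had 174, 191, 193 and 198 CPM in early SC and 40.0 to 60.01 in P SC. These values do not overlap. Of the 7 backbone and phosphatase-side Integrator subunits 4 were lower and none higher, in all scalings, among them Ints6 by 0.34, and Ints3 was lower by 0.29 (adjusted p = 0.0289). Polr2a (-0.00 ± 0.08, adjusted p = 0.967), Med1 (-0.06 ± 0.09, adjusted p = 0.542) and Ints11 (0.11 ± 0.11, adjusted p = 0.393) were not called in the main scaling. With size factors Polr2a (-0.22, adjusted p = 0.0186) and Med1 (-0.28, adjusted p = 0.00629) were called lower and Ints11 (-0.11) was not, and with library totals all 3 were lower, by 0.54, 0.59 and 0.42.

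From P SC to D SC most members fell, with Pol II in front. Of the 57 members 36 were lower and 11 higher, where 62.0% of all genes were called, 31.7% lower and 30.3% higher, and the median was -0.58 for members and -0.03 for all genes. With size factors 30 were lower and 13 higher (all genes 24.8% and 37.3%), and with library totals 41 and 7 (37.1% and 25.6%). At over 1.5-fold 32 members passed (50.7% of all genes), and at the stricter limits 17 (33.8%). In all 3 scalings 30 were lower and 7 higher. The lower calls in all scalings comprised 11 of 13 Pol II genes, 9 of 14 Integrator genes, including all 7 of the backbone and phosphatase side, and 10 of 30 Mediator genes.

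Polr2h had 19.9, 16.7, 10.7 and 14.8 CPM in P SC and 1.86, 1.93, 2.13 and 1.59 in D SC. Every D SC value lies below every P SC value, a 7.08-fold difference (-2.82 ± 0.16, adjusted p = 1.03e-12). Ints5, a backbone subunit, fell by 1.90 (± 0.18) and Med13l by 1.75 (± 0.14). Polr2d (RPB4), of the Pol II stalk, fell by 1.68 (± 0.11), Ints2 of the backbone by 1.66 (± 0.12) and Polr2m by 1.65 (± 0.08). Polr2a had 283, 307, 285 and 208 CPM in P SC and 124, 126, 145 and 105 in D SC, with no overlap (-0.92 ± 0.08, adjusted p = 8.57e-10). Polr2b (RPB2), which forms the active centre with Polr2a, fell by 1.61 (± 0.11). Med13 fell by 0.87, Ints6 fell by 0.96 and Ints3 fell by 0.89 on the log2 scale. Ints11 fell by 0.42 in the main scaling, a call that did not hold in all 3.

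Med28 of the tail rose from 237, 211, 206 and 220 CPM in P SC to 400, 400, 364 and 391 in D SC. The stages do not overlap (2.02-fold, 1.02 ± 0.10, adjusted p = 3.44e-09). Ints10 rose by 0.89 (± 0.12), reaching 177 to 188 CPM, Med7 by 0.69, Med9 by 0.66, Med29 by 0.51 and Polr2i by 0.44. Med1 rose by 0.36 in the main scaling (adjusted p = 0.00067), but not in all 3. Med12 (-0.26 ± 0.25), Med14 (0.03 ± 0.19) and Med15 (-0.12 ± 0.09) were not called in the main scaling. With library totals Med15 was called lower (-0.30, adjusted p = 0.0073) and with size factors it had 0.13, not called, while Med12 (-0.45 and -0.02) and Med14 (-0.16 and 0.27) were called in neither.

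From D SC to RS, 40 members were lower and 14 higher, where 75.8% of all genes were called, 37.0% lower and 38.8% higher, and 34 and 14 held in all 3 scalings. The median log2 fold change was -0.65 for members and 0.10 for all genes. With size factors 34 were lower and 16 higher (all genes 32.3% and 42.5%), and with library totals 36 and 15 (33.2% and 41.7%). At over 1.5-fold 42 members passed (68.3% of all genes), and at the stricter limits 30 (51.0%). All 7 head subunits of Mediator were lower in every scaling, as were all 3 subunits of the Integrator cleavage module. Of Pol II, 10 of 13 genes were lower in the main scaling, 8 of them in all 3, and 3 shared subunits were higher in all 3.

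Among head subunits, Med11 had 15.5, 16.5, 17.3 and 17.7 CPM in D SC and 2.79, 2.33, 2.53 and 1.59 in RS. The stages lie apart by 8.46-fold (-3.08 ± 0.16, adjusted p = 8.81e-14). Med22, its partner in the head, fell 6.22-fold (-2.64 ± 0.10) and Med18 4.45-fold (-2.15 ± 0.27). Med16 fell from 140, 115, 138 and 135 CPM to 35.1, 25.9, 28.4 and 24.7 (-2.39 ± 0.08, adjusted p = 1.43e-16), so the RS values lie below those of early SC. Ints14 fell by 1.75 (± 0.17) and Med15 by 1.72 (± 0.09). Polr2a fell by 1.15, Polr2m by 1.04, Med1 by 1.01, Ints11 by 0.92 and Ints6 by 0.44.

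Of the members that rose, Med12 went from 0.310, 0.494, 0.639 and 0.437 CPM in D SC to 4.60, 3.15, 3.32 and 3.12 in RS, and Med14 from 1.34, 1.09, 1.33 and 1.11 to 7.23, 6.84, 5.45 and 5.56. For both, each RS value exceeds each D SC value (Med12 2.68 ± 0.22, adjusted p = 1.49e-10, and Med14 2.23 ± 0.18, adjusted p = 8.05e-11). All X-linked genes had a median of 1.79, with 583 of 730 higher and 2 lower. The RS levels of Med12 and Med14 lie in or near the range of free RNA given above, and its part in them was not tested. Med21 rose from 30.9, 24.3, 24.8 and 26.8 CPM to 95.4, 132, 107 and 115, with no overlap (3.77-fold, 1.92 ± 0.12, adjusted p = 1.29e-12). Polr2f rose by 1.33 (± 0.10), Ints2 by 1.33 (± 0.12), Ints12, a small subunit with a PHD finger, by 1.13 (± 0.13), Med13 by 0.76 and Ints3 by 0.74. Free RNA of the control mice had 128 to 157 CPM of Polr2f, 13.3 to 27.2 of Ints2 and 21.3 to 60.9 of Med13. It had 16.5 to 26.9 of Ints3, and the RS levels of these genes lie in or near these ranges. Med21 and Ints12 had 64.7 to 77.3 and 15.2 to 19.1 CPM in free RNA, below their RS levels. The part of free RNA in these rises was not tested.

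Other genes of the pathway gave counts of the same kind. Of 36 general transcription factor genes, 20 rose and 1 fell from SG to early SC (16 and 1 in all scalings), 17 rose and 12 fell on the way to P SC (9 and 12), 12 rose and 15 fell on the way to D SC (8 and 10), and 5 rose and 26 fell in RS (5 and 21). Of 19 genes of Pol I and Pol III alone, 4 rose and 8 fell in early SC (3 and 8), 10 and 6 in P SC (7 and 6), 4 and 12 in D SC (4 and 9) and 3 and 14 in RS (3 and 12). Of 15 genes for Pol II assembly and phosphatases of its tail, 5 rose and 5 fell in early SC (4 and 5), 5 and 7 in P SC (2 and 7), 3 and 11 in D SC (1 and 7) and 4 and 10 in RS (4 and 10). Integrator partners, 6 genes that include subunits of the phosphatase PP2A, gave 2 rises and 3 falls in early SC, 1 and 4 in P SC, 1 and 5 in D SC (1 and 3 in all scalings) and 1 and 3 in RS.

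The genotypes were compared in SG and early SC together, in each alone and in Sertoli cells, with all 9 mice in 1 edgeR fit. Both cKO groups share the same 4 control mice. As in the study, a germ cell of a cKO mouse was set aside where it still held a UMI of the deleted gene. P SC of the 3 TDP-43 cKO mice then numbered 0, 3 and 3 cells and were not compared, where 4, 112 and 84 were present with no cell set aside. P SC of NELF-B cKO 1 and 2 numbered 93 and 32 cells and were not compared either. These 2 mice differed in later cells, with 355 and 9 D SC and 265 and 8 RS. Mediator had 2605 to 2819 CPM in early SC of the controls, 2454 and 2779 with the NELF-B cKO and 2612, 2812 and 2785 with the TDP-43 cKO. These sums overlap, but within Mediator the 9 tail genes had 660 to 725 CPM in the controls, 550 and 628 with the NELF-B cKO and 542, 621 and 590 with the TDP-43 cKO, both cKO groups below every control. The tail sums lay apart in Sertoli cells as well (598 to 712 CPM in the controls, 580 and 535 with the NELF-B cKO and 548, 562 and 546 with the TDP-43 cKO) but overlapped in SG. In SG it was the head, with 269 to 293 CPM in the controls, 297 and 312 with the NELF-B cKO and 308, 306 and 297 with the TDP-43 cKO, and the middle, with 834 to 896.8, 897.3 and 922, and 928, 902 and 910 CPM, that lay above every control in both cKO groups. None of these sums was tested. They were picked after all such sums were seen, and the share lying apart was not counted. In early SC the stage markers differ between control and cKO mice, as given below for each cKO. In SG the 4 summed P SC markers had 149 to 189 CPM in controls. They had 107 and 60.0 CPM with the NELF-B cKO and 47.6 to 72.7 with the TDP-43 cKO. Free RNA had 257 to 305 CPM of the tail gene Med28 in controls and 85.6 to 142 with the TDP-43 cKO. For Med25 of the tail it had 39.6 to 49.3 and 59.9 to 77.9. The part of these differences in the sums was not tested. In early SC the 9 middle genes had 1240 to 1379 CPM in the controls, 1179 and 1371 with the NELF-B cKO and 1357, 1441 and 1464 with the TDP-43 cKO, which overlap. Integrator had 1014 to 1182 CPM there in the controls, 899 and 1183 with the NELF-B cKO and 1099 to 1175 with the TDP-43 cKO. Of the 10 members followed in every comparison (Polr2a, Polr2m, Med1, Med12, Med13, Med14, Med15, Ints3, Ints6 and Ints11) none was called by genotype in this fit or for a difference between stages, and their log2 fold changes ran from -0.50 (Ints11, Sertoli cells of TDP-43 cKO mice) to 0.47 (Med14, early SC of TDP-43 cKO mice). Other settings called 3 of them higher with the TDP-43 cKO. Polr2m was called in SG and early SC together without the NELF-B cKO mice or without either of them, Polr2a in early SC with cells set aside in controls too, and Polr2a and Ints6 for the difference between stages by DESeq2 and with either other way of setting cells aside. These settings called 12.1% to 13.3% of all genes in SG and early SC together and 4.02% in early SC. For the difference between stages they called 2.02% to 2.295%.

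In NELF-B cKO mice no member was called by edgeR. In SG and early SC together 0.00511% of 19551 genes were called, and in this comparison 10 members and 2753 genes had an unadjusted p under 0.05, while DESeq2 called 2 members and 3.31% of genes. The lowest p-values were those of Med27 of the tail (-0.56 ± 0.12, adjusted p = 0.185), Ints7 of the backbone (-0.50 ± 0.14) and Med24 of the tail (-0.43 ± 0.13). Med27 had 63.4, 80.5, 72.6 and 81.0 CPM in early SC of control mice and 44.8 and 56.8 with the cKO. The groups do not overlap in early SC. DESeq2 called Med27 (adjusted p = 0.00769) and Ints7 (adjusted p = 0.0313). In early SC of the NELF-B cKO mice the 3 summed preleptotene-side markers had 849 and 624 CPM against 404 to 548 in controls, the 4 P SC markers 174 and 118 against 274 to 314, and the 6 Leydig markers 57.3 and 91.7 against 13.8 to 27.5. These groups do not overlap either, and the part of these differences in the NELF-B cKO values given here for early SC was not tested.

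Taken by stage, the NELF-B cKO gave 0 of 57 members in SG (0.0165% of all genes called, 0.011% higher and 0.00551% lower, 6 members and 2365 genes with an unadjusted p under 0.05, DESeq2 0 members and 1.97% of genes). The lowest p-values there were those of Polr2l (RPB10; 0.48 ± 0.16, adjusted p = 0.29), Ints9 (-0.53 ± 0.18) and Med18 (0.56 ± 0.20). In early SC it gave 0 members (0.00648% of genes, 7 members and 2369 genes with an unadjusted p under 0.05, DESeq2 5 members and 3.87% of genes), with Polr2b (0.40 ± 0.10, adjusted p = 0.125), Ints8 (0.49 ± 0.14) and Ints7 (-0.64 ± 0.18) in front. In Sertoli cells it gave 0 members (0.0% of genes; 0 members and 1446 genes with an unadjusted p under 0.05; DESeq2 0 members and 0.505% of genes), where Med16 (-0.48 ± 0.22), Med30 (0.28 ± 0.13) and Ints6 (-0.44 ± 0.21) had the lowest p-values. The difference between its effects in early SC and SG was called for 0 members (0.0108% of genes, 4 members and 1641 genes with an unadjusted p under 0.05, DESeq2 0 members and 0.271% of genes), with Ints9 (0.57 ± 0.21), Ints8 (0.39 ± 0.14) and Med28 (-0.39 ± 0.14) lowest in p.

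**Figure D4:**
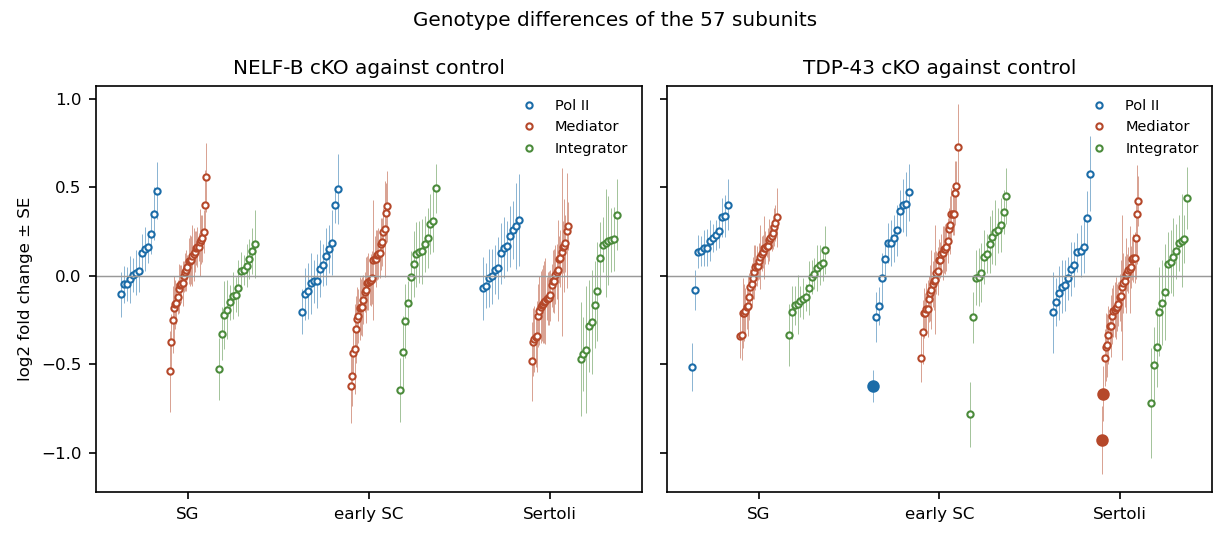
Log2 fold change with SE of the 57 subunits in each cKO against control in SG, early SC and Sertoli cells, sorted within each complex; large filled points were called at an adjusted p under 0.05. Most values lie within 0.5 of 0, and the called members are Polr2b in early SC and Med16 and Med12l in Sertoli cells of TDP-43 cKO mice.

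In TDP-43 cKO mice Polr2b, the second largest Pol II subunit (chr5:77310147-77349324), was the 1 member called in early SC, where 0.882% of 15426 genes were called, 0.648% higher and 0.233% lower. It had 167, 162, 159 and 158 CPM in controls, 88.4, 101 and 106 with the TDP-43 cKO and 230 and 201 with the NELF-B cKO. The 3 groups do not overlap, and the TDP-43 cKO level was 1.54-fold lower than control (-0.62 ± 0.09, adjusted p = 0.0212). In SG the level was 156, 146, 173 and 166 CPM in controls and 89.8, 115 and 122 with the TDP-43 cKO, again without overlap, but the difference was not called (-0.52 ± 0.14, adjusted p = 0.118). The effects in early SC and SG were not called as different (-0.08 ± 0.12, adjusted p = 0.81). In Sertoli cells Polr2b had 40.2 to 62.1 CPM in control and 41.6 to 49.6 in TDP-43 cKO mice. The call in early SC ended without control 1, 3 or 4 or without TDP-43 cKO 2 or 3, while without control 2 or TDP-43 cKO 1 it held. Over these 7 fits the log2 fold change ran from -0.66 to -0.57 and the adjusted p from 0.0414 to 0.100. The fits that lost the call had 0.0195% to 0.0724% of all genes called, and those that kept it 0.627% and 1.2%. The call also ended with a replicate block in the edgeR fit (adjusted p = 0.141) and under the limits of the study's genotype tests. With that block 0.00648% of all genes were called, and under those limits 0.0389%. DESeq2, which called 5 members and 12.8% of genes here, gave an adjusted p of 2.65e-08. Within early SC, the 3 summed markers of the preleptotene side had 404 to 548 CPM in controls and 615 to 1037 with the TDP-43 cKO, and free RNA had 27.1 to 46.4 CPM of Polr2b in controls and 43.0 to 82.0 with the cKO. Their part in the result was not tested.

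**Figure D5:**
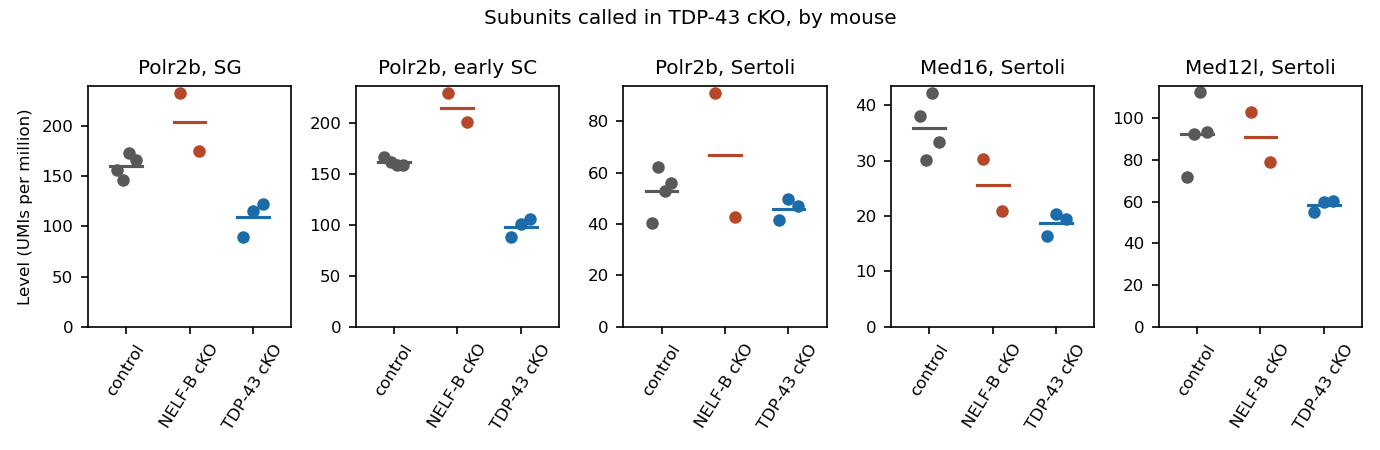
Level (CPM) of the 3 members called in TDP-43 cKO mice, by genotype; points are mice and bars group means, and Polr2b was called by edgeR in early SC only. Polr2b in TDP-43 cKO mice lies below control in SG (89.8 to 122 CPM) and early SC (88.4 to 106 CPM) but within the control range in Sertoli cells.

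In SG and early SC together, 0 members were called in TDP-43 cKO mice (0.00511% of 19551 genes, 12 members and 4775 genes with an unadjusted p under 0.05, DESeq2 5 members and 12.6% of genes), with Polr2b (-0.55 ± 0.11, adjusted p = 0.0867), Med27 (-0.36 ± 0.11) and Polr2l (0.49 ± 0.15) lowest in p. In SG alone 0 were called (0.011% of genes, 15 members and 3587 genes with an unadjusted p under 0.05, DESeq2 5 members and 9.46% of genes), and Med6 of the head (0.22 ± 0.07) and Polr2d (0.33 ± 0.11) followed Polr2b. With control and TDP-43 cKO mice alone in the fit, 13.3% of genes and 4 members were called in SG and early SC together, Polr2b lower and Polr2e, Polr2h and Polr2m higher. In early SC alone that fit called 12.8% of genes and 4 members, Polr2b, Ints10 and Med16 lower and Med21 higher.

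Ints10 had the lowest p of all members for a difference between stages in the effect of the TDP-43 cKO, although it was not called. It had 72.1, 47.8, 60.6 and 56.0 CPM in early SC of controls and 23.4, 36.3 and 36.5 with the cKO, whereas SG had 62.6 to 88.3 and 60.9 to 70.5. The early SC values do not overlap (-0.78 ± 0.18, adjusted p = 0.055), the SG values do, and the difference of the effects was -0.63 (± 0.14, adjusted p = 0.0744). The 2 others lowest in p for this difference were Ints6 (0.43 ± 0.09, adjusted p = 0.0765) and Ints5 (0.69 ± 0.18), with 0 members called (0.228% of 18460 genes, 0.179% higher and 0.0488% lower, 10 members and 2897 genes with an unadjusted p under 0.05, DESeq2 4 members and 2.16% of genes). Ints10 is a member that rose in P SC and D SC, and the summed 4 P SC markers in early SC had 274 to 314 CPM in controls and 103 to 205 with the TDP-43 cKO, and the 4 D SC markers 53.7 to 100.3 and 3.599 to 14.5. In free RNA Ints10 had 106 to 127 CPM in control mice and 25.4 to 68.4 in TDP-43 cKO mice. The part of these differences in the result was not tested.

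In Sertoli cells of TDP-43 cKO mice, 2 members were lower and none higher, where 11.6% of 14469 genes were called, 8.52% lower and 3.12% higher, while DESeq2 called 4 members and 20.0% of genes. Med16 had 38.1, 30.1, 42.2 and 33.4 CPM in controls, 16.4, 20.4 and 19.5 with the TDP-43 cKO and 30.3 and 20.9 with the NELF-B cKO. The control and TDP-43 cKO values do not overlap (1.90-fold lower, -0.93 ± 0.19, adjusted p = 0.0358). Med12l had 71.8, 92.2, 112 and 93.4 CPM in controls and 54.8, 59.8 and 60.4 with the TDP-43 cKO, 1.59-fold lower and without overlap (-0.66 ± 0.16, adjusted p = 0.0363). For each, the call ended without any 1 of the control and TDP-43 cKO mice other than control 2, 6 of 7 fits, with adjusted p-values of 0.0485 to 0.120 for Med16 and 0.0485 to 0.125 for Med12l. In those 6 fits 0% of all genes were called, and 6.28% were called without control 2.

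The median Sertoli cell held 1963 to 2655 UMIs in control mice and 24841, 8605 and 19327.5 in TDP-43 cKO mice. The cells came from 3 clusters in different shares. Cluster 10, of shallow cells (median 2105.5 UMIs), held 63.3% to 87.8% of the Sertoli cells of the control mice and 32.6%, 49.5% and 34.4% of those of the TDP-43 cKO mice, and the others lay in clusters 13 and 29 (medians 37640 and 22114 UMIs). Within clusters 13 and 29 alone, Med16 had 27.3, 24.5, 42.4 and 30.3 CPM in controls and 16.8, 20.6 and 19.3 with the TDP-43 cKO, and Med12l had 112 to 127 CPM in controls and 57.1, 63.97 and 62.4 with the TDP-43 cKO. The groups do not overlap there either, a comparison made after the data were seen and not tested. Within cluster 10, Med12l had 20.3, 12.4, 5.06 and 9.75 CPM in controls and 3.72, 18.5 and 16.3 with the TDP-43 cKO. These values overlap and rest on 1 to 11 UMIs. Med16 had 40.5 to 49.6 CPM in cluster 10 of controls and 7.44 to 21.8 with the TDP-43 cKO. In Sertoli cells the summed P SC markers had 203 to 285 CPM in control and 49.8 to 92.1 in TDP-43 cKO mice, the D SC markers 76.8 to 201.2 and 4.199 to 18.7, and the RS markers 86.6 to 377.5 and 17.4 to 29.8. Med16 had 72.9 to 101.5 CPM in free RNA of control mice and 24.3 to 58.9 in that of TDP-43 cKO mice, and Med12l had 8.27 to 21.8 and 21.5 to 48.1. What part depth and germ cell RNA have in the Med16 and Med12l results was not tested.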

How the data were processed

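The deposited files hold raw UMI counts per gene and barcode for each mouse, which the authors made with Cell Ranger on mm10 (versions 6.1.1 and 7.0.0 per the labels' processing notes, which also list Seurat 4.2.0 and DESeq2 1.36). A barcode was kept if it had more than 1000 genes and less than 10% of its UMIs from mitochondrial genes (45132 in all), and cells were clustered with leidenalg 0.10.2, leaving out the genes described. Genes had to occur in over 15 barcodes, and 3000 variable genes, 40 components, 20 neighbours and a resolution of 0.8 were used. A cluster was named where at least 3 markers were 2-fold higher or more. Clusters with a median under 2000 UMIs or over 80% of cells from 1 mouse stayed unnamed, a limit set after the clusters were seen. Of 33 clusters 26 were named (27644 cells), and Scrublet, run in scanpy 1.11.5, marked 184 of these cells (0.666%) as doublets, which were kept. In cKO mice 232 germ cells with Nelfb and 3114 with Tardbp were left out.

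UMI counts were added up for each cell type of each mouse, and sums under 20 cells were left out. Tests used edgeR 4.0.16 (filterByExpr, TMM, quasi-likelihood, two-sided) with Benjamini-Hochberg adjustment over all genes tested. Stages were fitted over 4 control mice and 6 cell types with the mouse as a block, genotypes over all 9 mice, and stage effects between genotypes with the mouse as a block. DESeq2 1.42.0, its size factors, no low-count filter, a replicate block, no doublets, no limits on clusters, other removal of germ cells and leaving out each mouse were alternatives. Library totals without TMM, fits of 2 groups alone and, for stages, an adjusted p under 0.05 with over 1.5-fold were chosen after seeing the data. In simulated counts, 90% of 200 genes changed 2-fold were called for P SC against early SC among 18441 genes, and 82.5% for the TDP-43 cKO in SG and early SC among 19279. How closely the spread of these counts follows that of the mice was not tested. The share of 2-fold changes called in the mice is therefore not known. Named in the text are 10 members in every stage comparison, the 6 called members of largest change in each direction, and by genotype the called members or, with none, the 3 of lowest p. The other members named were chosen after their values were seen. The members and lists were chosen with earlier results of these data known. Each sample is 1 mouse. Where the mouse is a block, p-values measure how differences between cell types vary among mice, and in the other fits how levels do.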

Additional observations from a re-analysis of the deposited data

Results flagged for a closer look

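Among 128 levels of named members in the 4 control mice, 8 had 1 mouse far from the other 3, by Dixon's test, which chance gives in about 1 of 20 such groups. Control 1 stood apart in 5 of them. It was high for Polr2f in SG (708 CPM against 568 to 585), for Ints11 in P SC (40.0 CPM against 29.3 to 30.9) and for Med12 in RS (4.60 CPM against 3.12 to 3.32). It was low for Ints4 in SG (40.5 CPM against 48.1 to 49.1) and for Med15 in early SC (60.4 CPM against 71.7 to 73.7). Control 3 was high for Ints12 in D SC (9.43 CPM against 8.54 to 8.68). Control 4 was high for Ints12 in RS (24.9 CPM against 20.2 to 20.9) and low for Med1 in early SC (99.3 CPM against 124 to 125). With all 9 mice in the edgeR fit, no member was called for a difference between the effects of a cKO in early SC and SG, while for the TDP-43 cKO DESeq2 called 4 and the fit of its 2 groups alone called 1.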

How the results depend on the processing

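Of the single values of named members under the alternatives, 1635 kept direction and side of the threshold, 131 lost the call (48 of them under the limits of the study's genotype tests and 23 under those it set between cell types), 48 gained one and 29 reversed. For P SC against early SC, library totals turned Ints11 (to -0.42), Ints13 (-0.047), Ints9 (-0.10), Med10 (-0.30), Med23 (-0.21), Med25 (-0.15), Med31 (-0.082), Med7 (-0.018), Polr2e (-0.32) and Polr2g (-0.10). DESeq2 and its size factors turned Polr2e (-0.010 and -0.012) and Ints11 (-0.11 with each), which had -0.012 with no low-count filter and -0.0037 with no limits on clusters, while Polr2a had 0.0039 with no replicate block and, without 1 control, -0.027 (without control 3) to 0.048 (without control 2), with 0.040 without control 4. For D SC against P SC, Med14 had -0.16 with library totals, -0.0145 with no low-count filter, -0.45 with no limits on clusters and, without 1 control, -0.040 (control 1) to 0.21 (control 2), with -0.036 without control 4, and Med15 had 0.12 with DESeq2, 0.13 with its size factors and 0.0004 with no limits on clusters. The Polr2b difference between stages had 0.074 with no germ cell removed and 0.029 with removal in control mice too. At over 1.5-fold, 25 members were called for early SC against SG. At the limits of the genotype tests (a log2 change of 1 or more in size with an adjusted p below 0.01) 6, 13, 17 and 30 members were called in the 4 stage comparisons, in order, in place of 41, 43, 47 and 54, and 0 with the TDP-43 cKO in early SC and 0 in Sertoli cells. With the TDP-43 cKO those limits called 0.0389% of all genes in early SC and 0% in Sertoli cells. Without each mouse in turn, the stage counts ran from 36 to 41, 39 to 42, 44 to 47 and 50 to 53, and with no replicate block they were 37, 41, 45 and 53. By edgeR's adjusted p, TDP-43 cKO counts ran from 0 to 4 without a mouse in SG and early SC together (4 without NELF-B cKO 1 or 2, with 12.1% of genes), 0 to 2 in SG (2 without NELF-B cKO 1, 1 without NELF-B cKO 2), 0 to 4 in early SC and 0 to 3 in Sertoli cells. In these fits 0.00514% to 12.1% of all genes were called in SG and early SC together and 0.00548% to 8.08% in SG. The shares ran from 0.0195% to 11.9% in early SC and from 0% to 20.4% in Sertoli cells. DESeq2 called 2 members (3.31% of all genes) with the NELF-B cKO in SG and early SC together and 5 (3.87%) in early SC, and with the TDP-43 cKO 5 in both together (12.6%), 5 in SG (9.46%), 5 in early SC (12.8%), 4 in Sertoli cells (20.0%) and 4 for the difference between stages (2.16%). With only the 2 groups compared, the TDP-43 cKO gave 4 in SG and early SC together (13.3%), 2 in SG (9.05%), 4 in early SC (12.8%) and 1 for the difference (0.603%). With no filter on low counts it gave 2 in early SC (5.79%) and 1 for the difference (1.08%), with no germ cell removed 2 (4.78%) and 2 (2.02%), and with removal in control mice too 3 (4.02%) and 2 (2.295%). The cause of these changes was not tested. Mice with the same replicate number had correlations of -0.42 to 0.38. These cannot settle whether the numbers pair the mice, since the deviations of the 2 NELF-B cKO mice mirror each other. With the replicate block edgeR called 0 members with the TDP-43 cKO in early SC and 0 in Sertoli cells. That fit called 0.00648% of all genes in early SC and 0% in Sertoli cells. The adjusted p-values were then 0.141 for Polr2b, 0.171 for Med16 and 0.172 for Med12l. Depth limits Med12, with 3 to 16 UMIs per control mouse in P SC.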

Other observations

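Among general transcription factors, the X-linked Taf7l, a testis form of a TFIID subunit, fell by 5.39 on the log2 scale in P SC and rose by 2.64 in RS, and Taf9b, also X-linked, fell by 4.15 in P SC and rose by 3.67 in RS. Taf4b, an autosomal TFIID subunit of germ cells, fell by 3.01 in P SC and rose by 2.80 in RS. With the TDP-43 cKO in early SC, Taf7l (0.94, adjusted p = 0.00737 by edgeR), Taf9b (0.74) and Taf12 (0.58) were higher, and the effect of the cKO on Taf7l was called as different between early SC and SG (0.75, adjusted p = 0.0210). In these early SC the summed preleptotene-side markers had 615 to 1037 CPM against 404 to 548 in controls, and the P SC markers 103 to 205 against 274 to 314. In Sertoli cells of TDP-43 cKO mice Tbpl1 (-1.95, adjusted p = 0.0378 by edgeR) and Gtf2a1l (-4.43, adjusted p = 0.0358) were lower and Ctdsp2, a phosphatase of the Pol II tail, was higher (0.68, adjusted p = 0.0393), beside D SC markers of 4.199 to 18.7 CPM against 76.8 to 201.2 in controls. The part of these marker differences in the results was not tested. For the difference between stages with the TDP-43 cKO, edgeR called 0 genes without control 1, 3 or 4 or with no replicate block. In the genotype fits with a replicate block it called 0 genes higher in early SC and 0 genes in Sertoli cells. None of these calls held there.

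Sertoli cells of the control mice had a mean of 536 CPM of Med10, against 272 in the highest germ cell stage, 308 of Med19 against 131, and 116 of Polr2l against 67.4. These values lay above every germ cell stage in each of the 4 mice.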
